A study of Mus musculus with 8 samples.

Results

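The tumour necrosis factor (TNF) superfamily of ligands, the matching receptor superfamily and the TRAF adaptors were followed in double-positive (CD4+ CD8+) thymocytes, a stage before T cells mature. Members were taken by symbol from the annotation of the array: each gene whose single symbol starts with Tnfrsf or Tnfsf, together with Tnf, Lta, Ltb, Ltbr, Fas, Fasl, Cd27, Cd40, Cd40lg, Tradd and the Traf genes. This gave 43 of the 18193 genes with a 1-symbol probe set: 12 ligands, 5 receptors with a death domain, 18 other receptors, 7 TRAFs and adaptors, and 1 antisense transcript. Of their 74 probe sets, the one with the highest mean log2(signal + 16) stood for its gene. Ripk1 and Traf3, which the same choice of names covers, are not analysed here.

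TNF superfamily ligands are trimers on the cell surface or in solution, and each binds one or a few receptors of the partner family. Receptors with a death domain can recruit the adaptors TRADD or FADD and start cell death, while the other receptors recruit TRAF proteins and lead mainly to NF-kappaB and MAP kinase signalling. In the thymus, lymphotoxin and RANK ligand from thymocytes act on the epithelium, CD27 marks developing T cells, and GITR and OX40 act on regulatory T cell precursors.

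RNA came from 4 biological replicates labelled c-Myb sufficient (titled control) and 4 labelled c-Myb deficient (titled mutant). The mice were aged 4 to 5 weeks, and each replicate had 1 Affymetrix array. Each replicate is taken here as 1 mouse, which the titles do not state. Every mouse was Tcra-/-, without a T-cell receptor alpha chain, and carried Cd4-Cre, a recombinase driven by the Cd4 promoter. CD4-positive cells were enriched on magnetic columns, so other cells with CD4 were not removed by that step. The source names give the sufficient group the Mybf/f genotype and the deficient group Mybf/w, which is the reverse of the genotype field and the titles. The groups are therefore called by the genotype field, and each difference below is the deficient minus the sufficient arrays. If the source names were right instead, the direction of every difference below would be reversed.

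Each array had been scaled to a trimmed mean signal of 250, with array medians of 30.0 to 37.9, and log2 signals correlated at 0.974 to 0.984 within groups and 0.964 to 0.979 between groups. Myb itself was not lower on the deficient arrays: its brightest probe set read 8326 to 10388 on sufficient and 10512 to 11754 on deficient arrays, without overlap (log2 0.28, adjusted p = 0.0845 over probe sets). A second Myb probe set read 4183 to 5158 and 5458 to 6396 and was called higher (0.36, adjusted p = 0.0327), and the remaining one overlapped (0.04, adjusted p = 0.816). The position of its probes relative to the floxed part was not known, so the levels do not check the labels. Defining genes of double-positive cells were bright on all arrays, as Cd8a read 9755 to 11951 and Rag1 10569 to 12221, but 3 of the 9 tested markers of this stage fell: Arpp21 (log2 -0.77), Cd1d1 (-0.54) and Rag2 (-0.41). Xist, the RNA of the inactive X chromosome, was high on all 4 deficient arrays (4129 to 5736) and on sufficient replicate 1 (4358.5), but was 23.4 to 36.7 on sufficient replicates 2, 3 and 4. Deficient replicate 4 stood apart in its 18S rRNA control, at 7143 against 676.1 to 1459 on the other arrays. Bulk RNA cannot tell fewer cells of a type from less RNA per cell.

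Of the 25 members that could be tested 9 rose on the deficient arrays: Lta, Ltb, Tnf, Tnfrsf25, Cd27, Tnfrsf18, Tnfrsf1b, Traf1 and Traf5. None fell: 0 were called lower by limma, and 1 (Traf2) was lower at an unadjusted p under 0.05, against 10 that were higher at that limit. Over all 9951 tested genes 9.97% were called (adjusted p under 0.05), with 5.89% of all tested genes higher and 4.08% lower. A gene was tested when 4 or more arrays read at least 33.8, the median signal of the table and the dim limit used below. Lta and Tnfrsf25 passed through the deficient arrays alone and so had to differ, and Tnf was below the limit on 3 of the 4 sufficient arrays. Among the 16 members above the limit on all 8 arrays, 6 rose and 10 did not pass the test. The median log2 difference over the 25 was 0.24, with 19 above 0, and over all tested genes it was 0.02, with 53.4% above 0. For 11 of the 25 members the arrays of one group all lay above those of the other, 10 of them with the deficient arrays higher, against 17% and 9.87% of all tested genes.

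**Figure D1:**
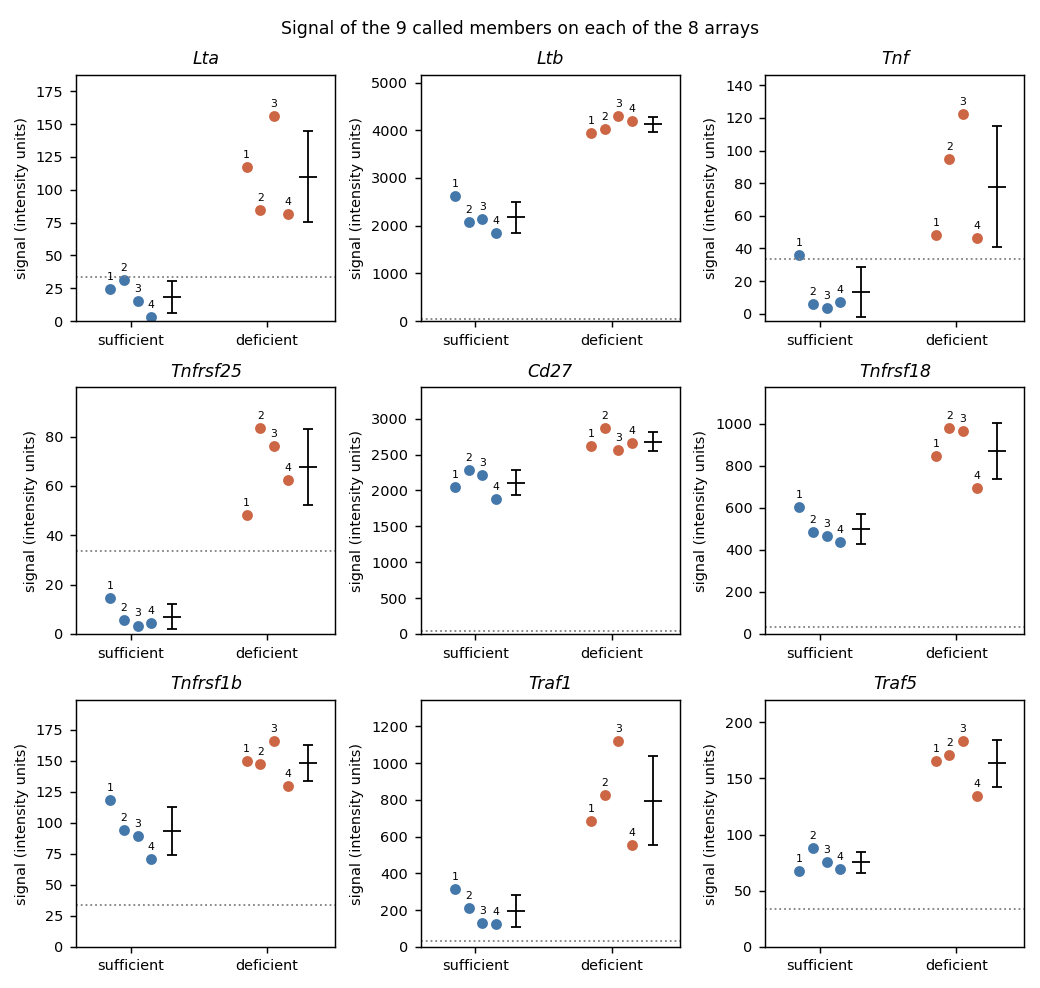
Signal (linear intensity units) of the 9 members called higher, one panel per gene, with numbered points for the 4 sufficient and 4 deficient arrays. The bars beside them are mean ± SD over 4 arrays and the dotted line is the dim limit of 33.8. In each panel the 4 deficient points lie above the 4 sufficient ones.

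Among the ligands, lymphotoxin beta rose with the most even values. Ltb (probe set 1419135_at), the membrane-anchoring chain of the lymphotoxin heterotrimer, read 2626, 2086, 2131 and 1839.8 on sufficient replicates 1 to 4 and 3945, 4033, 4307 and 4199 on the deficient ones. The deficient arrays lay within a narrow band well above the sufficient ones, of which replicate 1 was the highest. The log2 difference was 0.93 ± 0.10 (SE, adjusted p = 0.000379), or 1.91-fold on the log2(signal + 16) scale, with means of 2171 ± 329 and 4121 ± 163 (SD, n = 4 each).

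Lta (1420353_at), lymphotoxin alpha, which forms the heterotrimer with the beta chain and can also act alone, read 24.4, 31.2, 14.9 and 3.1 on sufficient arrays and 117.5, 84.8, 156.5 and 81.5 on deficient arrays. All 4 sufficient values were below the dim limit, so the rise is given as a bound. It was at least 3.14-fold higher on deficient arrays, set against that limit (fitted log2 difference 1.91 ± 0.29 SE, adjusted p = 0.00266).

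Tnf (1419607_at), the founding cytokine of the family, read 36.0, 5.8, 3.5 and 7.1 on sufficient arrays and 48.0, 94.6, 122.2 and 46.6 on deficient arrays. The gap between the groups was small, since sufficient replicate 1 stood close to deficient replicates 1 and 4. The log2 difference was 1.73 ± 0.36 (SE, adjusted p = 0.0126). For these dim genes the size of the difference depends on the pseudocount. With 1 in place of 16 it was 2.82 for Lta and 2.89 for Tnf, and with 64 it was 1.07 and 0.86.

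Ltb, Tnf and Lta lie side by side on chromosome 17, with 0 other protein-coding genes between them in RefSeq GRCm38.p6. Their promoters (250 bases before to 50 after the start, from RefSeq, GRCm38.p6) are shown because these neighbours rose together: Ltb at chr17:35194257-35194556 on the plus strand, Tnf at chr17:35201958-35202257 and Lta at chr17:35205302-35205601, both on the minus strand. Capitals mark AACNG, the core letters bound by Myb proteins, or its reverse complement, read on both strands.
Ltb: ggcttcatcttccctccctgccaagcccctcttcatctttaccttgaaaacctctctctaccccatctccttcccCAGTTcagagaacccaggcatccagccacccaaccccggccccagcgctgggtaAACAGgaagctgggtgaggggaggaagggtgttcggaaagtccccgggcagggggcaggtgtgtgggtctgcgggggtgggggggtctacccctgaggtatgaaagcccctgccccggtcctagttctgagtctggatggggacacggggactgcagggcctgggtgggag
Tnf: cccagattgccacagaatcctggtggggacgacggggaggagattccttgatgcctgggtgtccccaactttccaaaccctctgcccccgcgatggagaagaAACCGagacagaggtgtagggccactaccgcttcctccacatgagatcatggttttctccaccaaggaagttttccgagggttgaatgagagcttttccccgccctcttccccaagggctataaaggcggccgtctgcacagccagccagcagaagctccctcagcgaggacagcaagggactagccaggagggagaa
Lta: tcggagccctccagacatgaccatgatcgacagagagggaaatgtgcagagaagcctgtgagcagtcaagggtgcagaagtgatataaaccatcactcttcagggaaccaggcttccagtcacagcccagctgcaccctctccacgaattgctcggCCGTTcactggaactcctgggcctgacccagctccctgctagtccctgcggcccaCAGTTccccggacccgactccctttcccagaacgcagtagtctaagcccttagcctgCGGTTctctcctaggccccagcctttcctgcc
The letters AACNG occurred 2 times in the Ltb window, 1 time in that of Tnf and 3 times in that of Lta. Of all 32851 promoters of this length 80.3% hold at least 1 match, with a median of 2, and 6 of the 9 called members did. A second motif stands for NF-kappaB sites: GGGA, any 4 letters, then CC, on either strand. It occurred in 4 of the 9 (Ltb, Tnf, Tnfrsf25 and Traf5), 1 time each, against 20.7% of all promoters. In Ltb the match begins 87 bases before the start, and in Tnf 30 bases after it; none of these matches overlaps a capital. A match describes the letters only.

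The other ligands did not pass the test. Tnfsf10 (1459913_at), the death ligand TRAIL, read 53.5 to 105.7 on sufficient and 55.4 to 132.8 on deficient arrays (log2 0.30 ± 0.25 SE, adjusted p = 0.506), with wide overlap. Tnfsf9 (1422924_at), the 4-1BB ligand, read 49.2 to 96.7 and 21.7 to 62.0 (log2 -0.51 ± 0.27, adjusted p = 0.274). Tnfsf14, the ligand LIGHT, differed by -0.36 ± 0.21 (adjusted p = 0.327). On its second probe set, 1421588_at, the deficient arrays (20.8 to 37.3) all lay below the sufficient ones (40.0 to 60.6), but that probe set did not pass either (adjusted p = 0.173 over probe sets) and was singled out after its values were seen. Tnfsf4, the OX40 ligand, differed by 0.43 ± 0.24 (adjusted p = 0.299) and was below the dim limit on 3 of 4 sufficient arrays.

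Of the 4 tested receptors with a death domain the 1 called was Tnfrsf25, against 5.89% higher over all tested genes. It had to differ because it passed the filter through the deficient arrays alone, so the count is a description. Tnfrsf25 (1422231_a_at), the receptor DR3, which also costimulates T cells, read 14.6, 5.6, 3.4 and 4.3 on sufficient arrays and 48.4, 83.3, 76.2 and 62.4 on deficient arrays. The sufficient values were all below the dim limit and the deficient ones all above it. Taken at the mean log2 signal of the deficient arrays, the rise was at least 1.96-fold against that limit, with no allowance for the spread of the arrays. The fitted log2 difference was 1.87 ± 0.23 (SE, adjusted p = 0.000892). It was 3.26 with a pseudocount of 1 and 0.89 with 64.

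Fas (1460251_at), the death receptor that removes autoreactive lymphocytes, was measured well above the limit in both groups. It read 1665, 1866.5, 1536 and 1296.5 on sufficient arrays and 1788, 1844.5, 1792 and 1792 on deficient arrays. The deficient values lay inside the sufficient range, and the difference was 0.19 ± 0.10 (95% interval -0.04 to 0.42, adjusted p = 0.288). Tnfrsf1a (1417291_at), TNF receptor 1, read 780.0 to 1199 and 1117 to 1279.6 (log2 0.23 ± 0.13, 95% interval -0.05 to 0.52, adjusted p = 0.302). Tnfrsf21, or DR6, differed by 0.17 ± 0.20 (adjusted p = 0.660), with 1 deficient array below the limit. The intervals of Fas and Tnfrsf1a do not reach a log2 difference of 1 in either direction.

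Of the 7 tested receptors without a death domain 3 rose, against 5.89% of all tested genes: Tnfrsf18, Tnfrsf1b and Cd27. The calls of Tnfrsf1b and Cd27 depended on single arrays. Tnfrsf18 (1422303_a_at), the costimulatory receptor GITR, read 602.1, 487.2, 467.0 and 436.5 on sufficient arrays and 849.3, 978.1, 966.7 and 693.2 on deficient arrays. The nearest values of the groups came from sufficient replicate 1 and deficient replicate 4. The log2 difference was 0.79 ± 0.13 (SE, adjusted p = 0.00474), or 1.72-fold.

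Cd27 (1452389_at), the receptor for CD70 on developing and naive T cells, changed less in fold but evenly. It read 2047, 2283, 2218 and 1886.5 on sufficient arrays and 2623, 2864, 2568.5 and 2666.5 on deficient arrays. The groups did not overlap, and the difference was 0.35 ± 0.08 (SE, adjusted p = 0.0207), or 1.27-fold. The call ended without sufficient replicate 1 (adjusted p = 0.0550) and without deficient replicates 1 and 2 (0.0508 and 0.0767), and with the arrays centred on their medians (0.0633).

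Tnfrsf1b (1418099_at), TNF receptor 2, read 118.4, 94.6, 89.5 and 71.1 on sufficient arrays and 150.1, 147.8, 165.8 and 129.9 on deficient arrays. The lowest deficient array stood only slightly above sufficient replicate 1. The difference of 0.60 ± 0.15 (SE, adjusted p = 0.0307) lost its call in 5 of the 8 fits without an array, namely without sufficient replicates 3 and 4 and deficient replicates 1, 2 and 3, with adjusted p up to 0.0896. Its second probe set, 1448951_at, was dim and differed by 0.83 (adjusted p = 0.0946 over probe sets), with overlapping groups.

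Tnfrsf13b (1423182_at), the receptor TACI, best known from B cells, read 1000.4 to 1191 on sufficient and 756.9 to 1221 on deficient arrays (log2 -0.12 ± 0.13, adjusted p = 0.638). It was far above the dim limit on all 8 arrays, and the 7 B cell markers with a probe set were mixed. Cd79a, Ms4a1, Pax5, Ebf1 and Blk did not pass the filter, with readings of at most 37.5 for the first 4 and 65.7 for Blk. Cd79b read 319.5 to 610.6 over the 8 arrays and Ighm 6579 to 8078. The partner receptors Tnfrsf13c and Tnfrsf17 did not pass the filter either. Tnfrsf4 (1420351_at), or OX40, read 62.6 to 102.8 and 69.5 to 105.1 (log2 0.05 ± 0.18, adjusted p = 0.889). Tnfrsf8 (CD30) differed by 0.04 ± 0.22 and Tnfrsf12a (the TWEAK receptor) by 0.09 ± 0.30, both near the limit. Tnfrsf18 and Tnfrsf4 are next to each other on chromosome 4 in RefSeq, as are Tnfrsf1b and Tnfrsf8, and in each pair 1 receptor rose and the other did not pass; the difference within a pair was not tested.

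**Figure D2:**
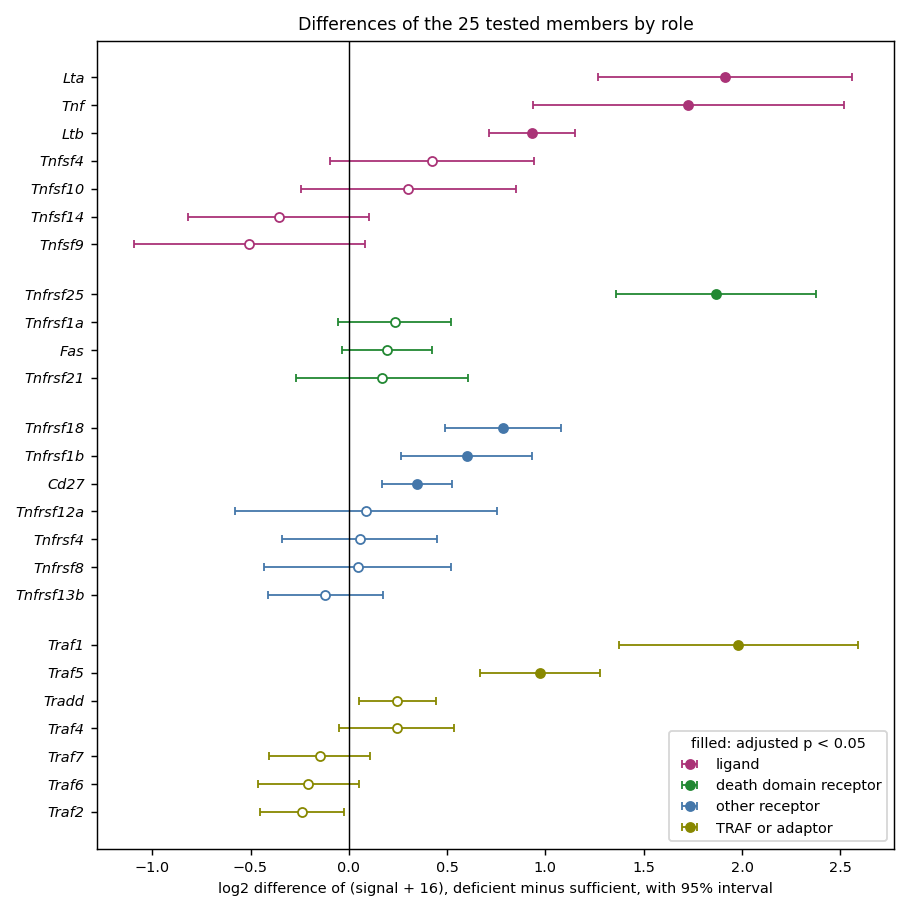
Log2 difference of (signal + 16), deficient minus sufficient, for the 25 tested members grouped by role, with 95% intervals from the fit over 4 against 4 arrays. Filled points passed the test; all 9 of them lie to the right of 0, and the open points have intervals that reach or come near 0.

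Of the TRAFs and adaptors all 7 could be tested, and Traf1 and Traf5 rose, against 5.89% higher over all tested genes. Traf1 (1445452_at), an adaptor of TNF receptor 2 and other costimulatory receptors and a known NF-kappaB target, read 312.7, 213.2, 131.0 and 124.8 on sufficient arrays and 682.5, 824.6, 1119 and 554.0 on deficient arrays. The lowest deficient value was well above the highest sufficient one, which again was replicate 1. The difference was 1.98 ± 0.28 (SE, adjusted p = 0.00156), or 3.95-fold. A second probe set, 1423602_at, gave 91.6 to 217.0 and 495.9 to 806.7, a difference of 1.99 ± 0.24 (adjusted p = 0.00129 over probe sets). Traf1 had the largest fold among the called members that lay above the dim limit on all 8 arrays. Its promoter, at chr2:34961723-34962022 on the minus strand of GRCm38.p6 (RefSeq), is shown for this reason, with AACNG in capitals at 2 places and no match to the NF-kappaB letters in this window.
Traf1: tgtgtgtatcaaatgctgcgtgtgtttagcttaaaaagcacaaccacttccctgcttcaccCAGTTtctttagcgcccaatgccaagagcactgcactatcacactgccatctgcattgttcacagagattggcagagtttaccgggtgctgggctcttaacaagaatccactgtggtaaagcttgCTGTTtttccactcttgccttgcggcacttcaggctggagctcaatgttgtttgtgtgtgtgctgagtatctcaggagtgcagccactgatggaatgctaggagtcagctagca

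Traf5 (1448861_at), an adaptor that binds CD27, OX40, CD30 and the lymphotoxin beta receptor, read 67.9, 88.2, 75.7 and 69.2 on sufficient arrays and 165.8, 171.1, 183.0 and 133.9 on deficient arrays. Here sufficient replicate 1 was the lowest of its group. The difference was 0.97 ± 0.14 (SE, adjusted p = 0.00172), or 1.96-fold.

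The remaining adaptors moved little. Tradd (1452622_a_at), the adaptor of TNF receptor 1 and DR3, read 361.8 to 425.8 and 452.0 to 485.1. Its groups did not overlap, yet the difference of 0.25 ± 0.09 did not pass (adjusted p = 0.106), and its other probe sets gave -0.08 and 0.11. Traf2 (1451233_at), which carries the cIAP ligases to the receptors, read 659.6 to 813.5 and 573.2 to 656.7, also without overlap (log2 -0.24 ± 0.10, adjusted p = 0.15). Traf7 (1424320_a_at), a TRAF that lacks the TRAF domain of the others, differed by -0.15 ± 0.12 (adjusted p = 0.489). Traf4 differed by 0.24 ± 0.13 (-0.07 on its second probe set). Traf6, the adaptor of CD40 and of Toll-like and interleukin-1 receptors, differed by -0.21 ± 0.12, and its other probe sets by -0.42 to -0.17, none of them called.

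The 18 members that were not tested had signals between 0.7 and 60.9. They were the ligands Fasl, Cd40lg, Tnfsf8, Tnfsf11 and Tnfsf13b, the death receptor Tnfrsf10b, the receptors Cd40, Ltbr, Tnfrsf9, Tnfrsf11a, Tnfrsf11b, Tnfrsf13c, Tnfrsf14, Tnfrsf17, Tnfrsf19, Tnfrsf22 and Tnfrsf23, and the antisense transcript Tnfsf13os. For 10 of them all 8 arrays were below the dim limit. Tnfsf8 (1450272_at), the CD30 ligand, was the 1 untested member whose groups did not overlap. It read 11.9, 23.1, 21.4 and 20 on sufficient arrays and 39.9, 60.9, 52.5 and 27.7 on deficient arrays, and it was singled out after its values were seen. Without the filter its difference was 0.78 ± 0.23 (adjusted p = 0.0940), and no untested member was called in that fit.

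**Figure D3:**
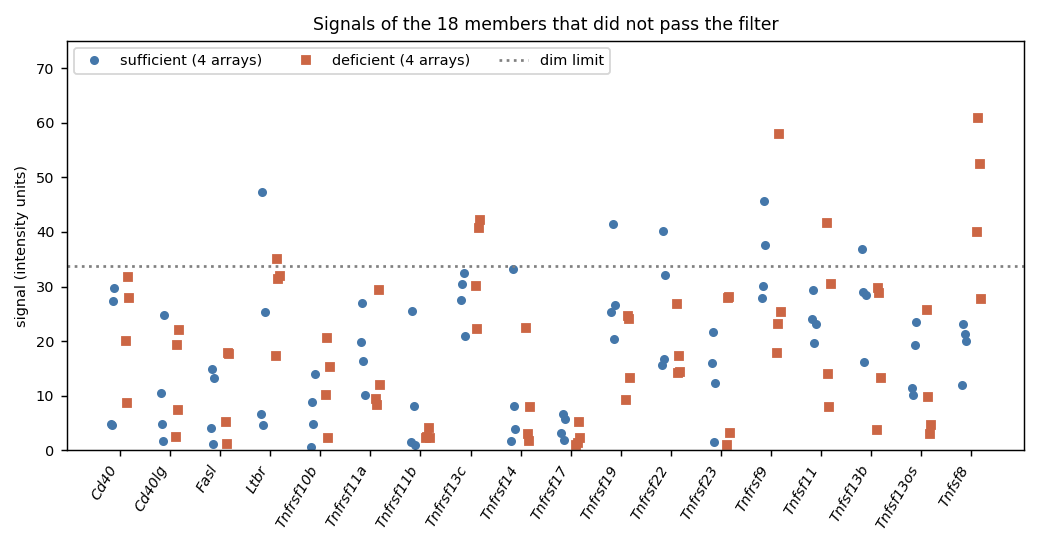
Signal (linear intensity units) of the 18 members that did not pass the filter, with circles for the 4 sufficient and squares for the 4 deficient arrays. The dotted line is the dim limit of 33.8, and all points lie between 0.7 and 60.9.

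Set side by side, ligands and receptors of these cells differed in which partner could be measured. Tnf and Lta rose, and of their shared receptors Tnfrsf1b rose while Tnfrsf1a did not pass. Ltb rose while its receptor gene Ltbr, which is expressed mainly by stromal and myeloid cells, read 4.6 to 47.4 over the 8 arrays and was not tested. Fas was bright, while its ligand Fasl read 1.2 to 17.8. Both Cd40 and Cd40lg were dim on all 8 arrays. Tnfrsf13b was bright and its ligand Tnfsf13b read 3.7 to 36.9. On chromosome 6, Cd27, Ltbr and Tnfrsf1a follow one another with 1 protein-coding gene between neighbours, and Cd27 alone of these was called.

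The position of single arrays went with these rises. Among the sufficient arrays, replicate 1, the sufficient mouse with high Xist, was the highest of its group for 6 of the 9 called members (Ltb, Tnf, Tnfrsf25, Tnfrsf18, Tnfrsf1b and Traf1), and for 33.6% of all 586 genes called higher. Sufficient replicate 4 was the lowest of its group for 6 of the 9, and for 38.7% of the 586. For Lta and Tnfrsf25 all 4 sufficient values were below the dim limit, and for Tnf 3 were, so their ranks rest on dim signals. Among the deficient arrays, replicate 3 was the highest for 6 of the 9 and replicate 4 the lowest for 6 of the 9, against 57.2% and 53.8% of the 586. Without sufficient replicate 1 the test called 8 members, all higher, and without deficient replicate 4 it called 9. When Xist was added as a covariate, the group difference rested on sufficient replicate 1 as the lone Xist-high control, and limma called 0 of the 25 members and 0.261% of all genes. In that fit 3 differences stayed near their size: Traf5 at 1.09 ± 0.22 (SE), Cd27 at 0.39 ± 0.13 and Lta at 1.60 ± 0.47. Tnfrsf25 was at 1.43 ± 0.34 and Ltb at 0.65 ± 0.12. Over 1.5 times smaller were Tnf (0.77 ± 0.45), Tnfrsf1b (0.29 ± 0.22), Tnfrsf18 (0.51 ± 0.19) and Traf1 (1.26 ± 0.35). Whether the Xist difference has a part in the rises was not tested beyond this fit.

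**Figure D4:**
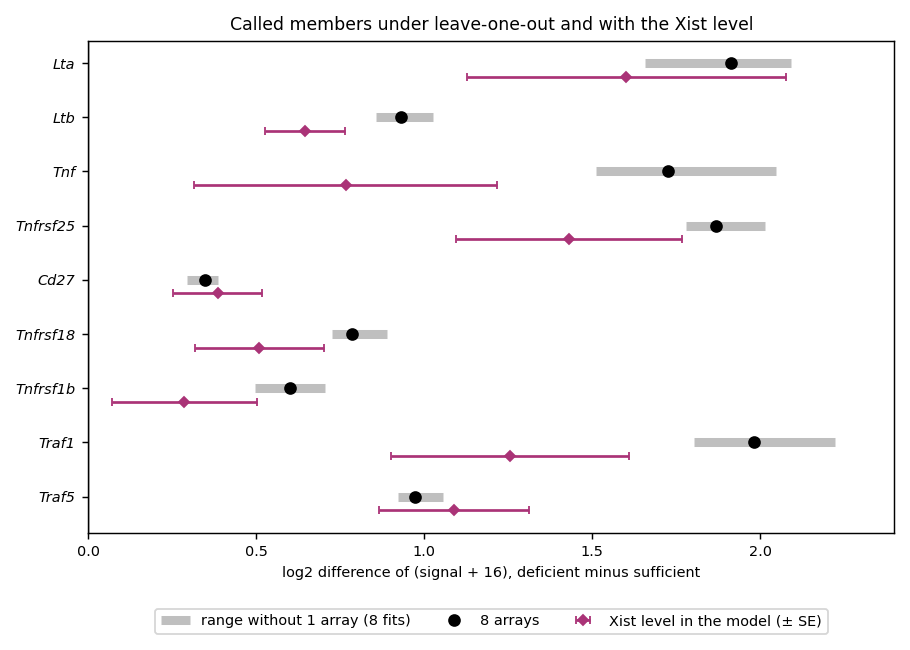
Log2 difference of (signal + 16) for the 9 called members: black points from all 8 arrays, grey bars spanning the 8 fits that leave out 1 array, and diamonds ± SE from the fit with Xist as a covariate. The diamond of Cd27 lies on its grey bar and that of Traf5 just to the right of it, while those of the other 7 lie to the left.

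Of 29 tested genes of receptor-proximal signalling, which act just below the receptors, 3 rose, 1 fell and 25 did not pass, against 5.89% higher and 4.08% lower over all tested genes. Their median log2 difference was -0.05, against 0.02 over all tested genes. At an unadjusted p under 0.05, 6 were higher and 3 lower, called genes included. Those not called were Casp8, Tab2 and Rnf31, higher, and Bid and Sharpin, lower. Tnfaip3 (A20), the enzyme that edits ubiquitin and shuts down TNF receptor signalling, fell: it read 1516, 2223, 2054 and 2341 on sufficient arrays and 791.3, 698.1, 493.8 and 995.8 on deficient arrays (log2 -1.45 ± 0.20 SE, adjusted p = 0.00131). The groups were far apart, with sufficient replicate 1 nearest to the deficient arrays. Its binding partner Tnip1 rose by 0.85 ± 0.13 (adjusted p = 0.00307), from 936.2 to 1463 up to 1847 to 2295. Map3k5, the kinase ASK1 that binds TRAF2, rose by 0.78 ± 0.16 (adjusted p = 0.0111) and Traf3ip2, the interleukin-17 receptor adaptor Act1, by 0.74 ± 0.21 (adjusted p = 0.0453). The death pathway genes Fadd (-0.17 ± 0.15), Casp8 (0.29 ± 0.11), Cflar (0.06 ± 0.11) and Ripk3 (-0.16 ± 0.11) did not pass, nor did the ligases Birc2 (-0.05 ± 0.11) and Birc3 (0.08 ± 0.14).

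Of 10 tested NF-kappaB kinases, subunits and inhibitors 2 fell and 0 rose by limma (1 higher at an unadjusted p under 0.05), with a median of -0.10, against 4.08% lower and 5.89% higher over all tested genes. With Xist as a covariate 0 genes of this list or of the other pathway lists were called by limma. Both falls were inhibitors of NF-kappaB. Nfkbia fell by 0.37 ± 0.07 (6971 to 8426 against 5866 to 6078, adjusted p = 0.00554) and Nfkbie fell by 0.72 ± 0.15 (598.0 to 959.4 against 416.1 to 564.0, adjusted p = 0.0141). The other tested genes of the inhibitor family were not called: Nfkbiz (0.66 ± 0.22), Nfkbid (0.17 ± 0.16) and Nfkbib (-0.08 ± 0.11). Nfkbiz was the 1 higher at an unadjusted p under 0.05. Of 9 tested NF-kappaB response genes 3 rose and 0 fell by limma (0 lower at an unadjusted p under 0.05), with a median of 0.28, against 5.89% higher, 4.08% lower and a median of 0.02 over all tested genes. They were Icam1 (0.52 ± 0.14), Irf1 (0.44 ± 0.11) and Sod2 (0.36 ± 0.10), with adjusted p of 0.0412, 0.0322 and 0.0360. This count was 0 or 1 in 7 of the 8 fits without an array. Tnfaip3, Nfkbia and Nfkbie, which fell, were placed in the other lists and are not in this count. Whether NF-kappaB activity differed between the groups was not tested. Nfkb1, Chuk and the Bcl2a1 genes of these lists are not analysed here. Rel, Relb and Bcl3 of the first list did not pass the filter. Nor did the response genes Cd83, Ier3, Ccl3, Ccl4, Ccl22, Cxcl10, Plau and Il15.

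**Figure D5:**
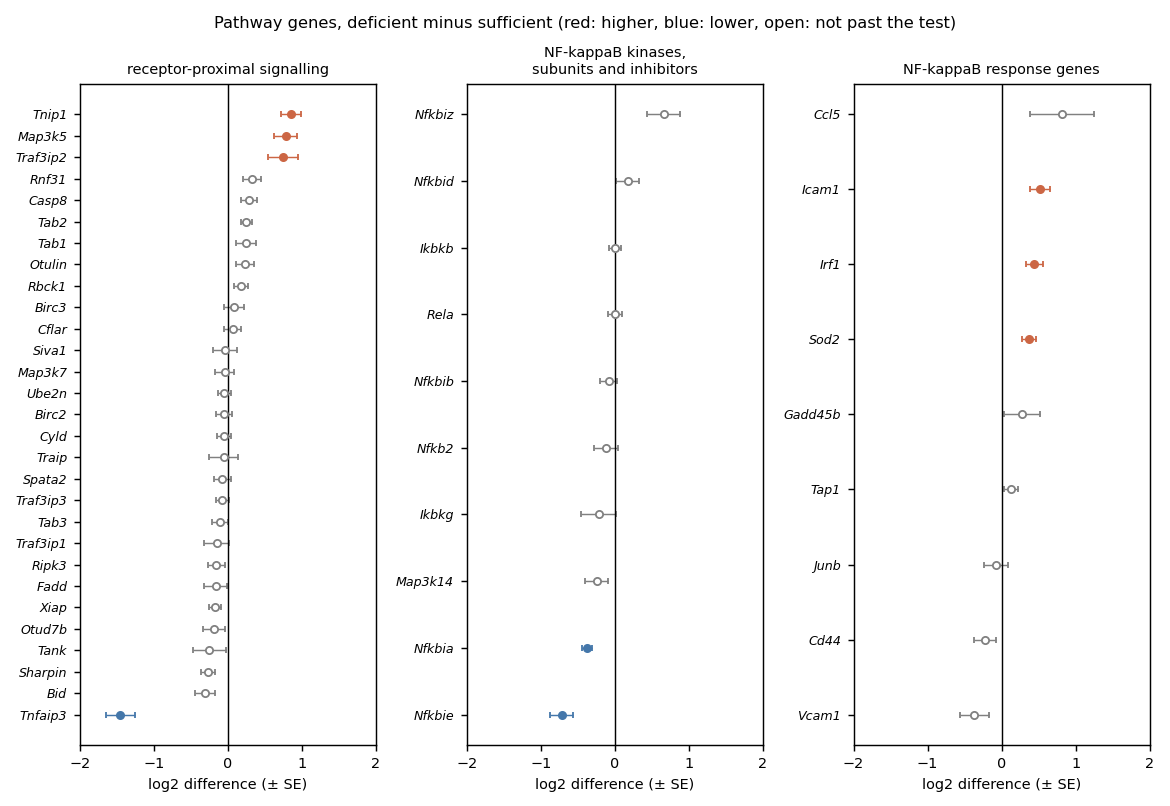
Log2 difference of (signal + 16), deficient minus sufficient, with SE, for the tested genes of 3 pathway lists. Filled red points passed the test as higher and filled blue ones as lower; Tnfaip3 at -1.45 lies farthest to the left.

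Marker counts of each cell type are read against 5.89% higher and 4.08% lower over all tested genes. Of the 9 double-positive markers 0 rose and 3 fell, and their summed signal was 48822 to 53625 on sufficient and 46578 to 49711 on deficient arrays. Of 4 tested regulatory T cell markers 1 rose, Il2ra (30.6 to 192.6 against 570.1 to 1101.9), while Foxp3 read 8.8 to 24.7 on all 8 arrays and Ctla4 differed by -0.06; Ikzf2 (-0.32) and Nrp1 (-0.55) were lower at an unadjusted p under 0.05 alone. The summed signal of the 7 regulatory T cell markers with a probe set was 1534 to 1935 on sufficient and 1725 to 2269 on deficient arrays. Of the mature single-positive markers 5 of 7 tested rose, among them Ccr7 and Itgb7, and their summed signal (8 genes) was 2349.6 to 3011 and 4488 to 5690.5. Il7r (0.52 ± 0.38 SE) and Cd69 (0.36 ± 0.15) did not pass the test. S1pr1, at 2.9 to 37.0 over all arrays, did not pass the filter. These counts are of genes, and whether the number of mature cells differed between the groups was not tested. Of 5 tested gamma-delta T, NKT and NK cell markers 1 rose, Gzma, and all 5 differences were above 0. At an unadjusted p under 0.05, 3 were higher: Gzma, Klrd1 (0.78 ± 0.32 SE) and Cd160 (0.63 ± 0.24). Ncr1, Tbx21, Zbtb16 and Eomes did not pass the filter. Sums over 9 genes were 2134 to 2707 and 3261.5 to 4467. Most of each sum was Gzma alone (1979.5 to 2400 and 2962 to 4066). Of 10 macrophage and dendritic cell markers 1 rose, Ctss, and the sums over 13 genes overlapped (951.8 to 2515 and 1688 to 2214.5). Of 2 tested B cell markers 0 were called by limma (1, Ighm, higher at an unadjusted p under 0.05), and sums over 7 genes were 7156 to 7378.5 and 7713 to 8611. Most of each of these sums was Ighm alone (6579 to 6880.5 and 7106 to 8078). Of 4 tested thymic stroma markers 0 were called by limma (Epcam and Pecam1 lower at an unadjusted p under 0.05), with sums over 13 genes of 903.9 to 1037.5 and 673.8 to 919.7. The part of any of these cell types in the rises of the receptor family was not tested.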

How the data were processed

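The authors' deposited table gives linear intensities from GCOS (Affymetrix), as named in the submitters' processing notes without a version. Values scaled to a common trimmed mean cannot show differences in total RNA per cell. No detection calls, scan dates or batches were at hand, and the number of arrays limits the precision. The labels call the arrays biological replicates.

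Of 45101 probe sets, 64 controls were left out; 34945 had 1 gene symbol, 932 several and 9160 none. Intensities were converted to log2(signal + 16), which understates the fold of dim genes, and 9951 genes passed the filter. The groups were compared by two-sided tests in limma 3.58.1 (R 4.3.3; lmFit, then eBayes with trend), and p-values were adjusted by Benjamini-Hochberg over those 9951 genes, or over all kept probe sets where stated. A bound sets the bright group's mean log2 signal against the limit of 33.8 and makes no allowance for the spread of the arrays. Figures were drawn with Python 3.11.15 and matplotlib 3.10.9.

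Members, lists and alternatives were chosen with earlier results of these data known. The text gives all called members by array, uncalled members whose groups do not overlap, and the 2 brightest uncalled ones per role. Proteins of called members were to be shown, and promoters took their place. On simulated data for this comparison (9951 genes), 4%, 56%, 80% and 98% of 50 genes were recovered at 1.25-fold, 1.5-fold, 2-fold and 4-fold, with 4 false among 123 calls. The simulation drew independent noise for each gene and changed far fewer genes than were called on the arrays. Its shares may therefore not carry over to them. Alternatives changed the normalization, pseudocount, filter, probe set, variance model, array weights, replicate block, Xist level and arrays used.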

Additional observations from a re-analysis of the deposited data

Results flagged for a closer look

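Among the 50 groups of 4 arrays examined for the tested members, Fas alone had a mouse set apart from its group, and about 1 group in 20 is set apart by chance. Its signal was 1844.5 in deficient replicate 2, and the remaining deficient values were 1788 to 1792. The gap is small in signal and rests on how close those 3 values are.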

How the results depend on the processing

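The count of 9 called members was 6 to 9 in every alternative except the fit with the Xist level, where 0 were called, and 0 members were called lower in any of them. The 6 came from a filter at a signal of 100, which left 14 members. Leaving out 1 array gave 7 to 9 higher and 0 lower. Of 177 values of called members under the alternatives, 158 kept the call, 19 lost it and 0 changed sign; Lta, Ltb, Tnf, Tnfrsf18, Tnfrsf25, Traf1 and Traf5 lost it with the Xist level alone, and Cd27 and Tnfrsf1b also elsewhere (Tnfrsf1b without the filter, adjusted p = 0.0770). Of the uncalled named members 0 became called; signs turned with the Xist level for Tnfrsf1a (-0.025), Tnfsf10 (-0.11) and Traf7 (0.073), and without single arrays for Tnfrsf13b (-0.21 to 0.013) and Tnfrsf4 (-0.055 to 0.14). With the Xist level, 0 genes were called in the lists of receptor-proximal signalling, NF-kappaB regulators and NF-kappaB response. Array weights gave 5 higher and 2 lower for receptor-proximal signalling and 1 higher for NF-kappaB regulators, against 1742 calls over all genes. NF-kappaB regulators had 1 lower without _x_at and _s_at probe sets. NF-kappaB response genes had 1 higher without a variance trend and 1 lower with no filter. Without 1 array, the counts ranged from 0 to 1 higher and 1 to 2 lower for NF-kappaB regulators, 0 to 3 higher for NF-kappaB response genes, and 2 to 4 higher for receptor-proximal signalling; the causes were not tested. The replicate number as a block also called 9 members higher, and over all genes 1036. Over all genes 992 were called, against 26 with the Xist level and 508 to 1218 without 1 array. Deviations of same-numbered arrays from their group means correlated at -0.27 to 0.36, which cannot settle whether the numbers pair the arrays. The block changed no call of a member named here and no count of the 3 pathway lists. Markers were not refitted with it. Signals near the dim limit are what limits Lta, Tnf and Tnfrsf25.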
